A study of Mus musculus with 24 samples.

Results

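The choroid plexus genes examined here are Ttr, Kl, Folr1, Clic6, Prlr, Slc4a5, Otx2, Sostdc1 and Enpp2, chosen by gene name as known products of the choroid plexus. All 9 were found among the 43346 genes of the count table, and all 9 were among the 19678 genes with enough counts to be tested. They were measured by bulk RNA sequencing in the cortex of 24 C57BL/6 mice, 1 library per mouse. All 24 mice carried Cx3cr1CreER/+, in which the promoter of a gene of microglia and other macrophages drives a Cre that tamoxifen activates, and a TREM2 construct written as TREM2-R47H+/+ or TREM2-WT+/+. TREM2 is a receptor by which microglia sense lipids, and R47H is a variant linked to the risk of Alzheimer's disease. The 4 groups were R47H_induced and R47H_control (TREM2-R47H+/+, given tamoxifen or the corn oil vehicle) and WT_induced and WT_control (TREM2-WT+/+, given tamoxifen or corn oil). Each group held 6 mice, 3 males and 3 females per the series text. The labels give neither the age nor the sex of single mice. Every mouse that received tamoxifen also had the Cre, so the drug and the induction of TREM2 cannot be told apart. The labels do not describe what the TREM2 constructs consist of. The depth of the libraries was 27933505 to 56082520 counts, and the 8 listed markers of cortical excitatory neurons summed to 1484 to 1639 CPM in R47H_induced, 1449 to 1610 CPM in R47H_control, 1430 to 1599.65 CPM in WT_induced and 1509 to 1605 CPM in WT_control.

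The choroid plexus is a folded, vascular tissue in the brain ventricles whose epithelium secretes cerebrospinal fluid and forms the barrier between blood and that fluid. It is not part of the cortex, but lies in the ventricles beneath it. Its epithelial cells are known for making very large amounts of transthyretin, the product of Ttr, which carries thyroid hormone and, with retinol-binding protein, retinol. Among the other genes, Kl encodes klotho, the co-receptor of the hormone FGF23, and Folr1 encodes the folate receptor that moves folate into the cerebrospinal fluid. Slc4a5 encodes a sodium bicarbonate cotransporter and Clic6 a member of the chloride intracellular channel family. Prlr is the prolactin receptor, Otx2 a homeodomain transcription factor needed to form the choroid plexus, and Sostdc1 a secreted antagonist of BMP and WNT signals. Enpp2 encodes autotaxin, the secreted enzyme that makes lysophosphatidic acid, and is known to be expressed in oligodendrocytes too.

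A promoter window of Otx2, the regulator in the list, is shown because it held the motif of its own class of factor. A single match among so few windows is no result about the members. RefSeq promoter windows of build GRCm38.p6, each running from 250 bases before to 50 after a gene start, were found for 4 members (Kl, Slc4a5, Prlr and Otx2), 9 windows in all. TAATCC, the core bound by OTX-type homeodomains, searched as TAATCC or its reverse complement GGATTA, was found in 1 of the 9, against 7.06% of all 32851 promoter windows. The match is in capitals, at position 40 of the window and 211 bases before the start of that transcript of Otx2, on the minus strand at chr14:48665060-48665359.
Otx2 promoter: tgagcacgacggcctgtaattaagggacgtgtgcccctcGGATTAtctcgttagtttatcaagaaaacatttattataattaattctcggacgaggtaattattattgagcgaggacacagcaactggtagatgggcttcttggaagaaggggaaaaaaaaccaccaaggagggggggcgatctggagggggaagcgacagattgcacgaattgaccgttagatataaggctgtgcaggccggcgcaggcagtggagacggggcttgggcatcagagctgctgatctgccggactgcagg
TATAAA was found in 2 of the 9 windows (Otx2 and Slc4a5), against 13.6% of all windows, and CCAAT in 2 of the 9 (Otx2 and Prlr), against 37.4%, both also searched on both strands. These matches describe the letters of the windows only.

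The library-to-library spread of these genes was far wider than that of a typical gene. The SD of log2 CPM (CPM, read counts scaled to the TMM-adjusted total of the library) over the 24 libraries had a median of 0.97 over the 9 members, against 0.13 over the 19678 tested genes. Ttr, with an SD of 2.22, was number 59 among tested genes by that measure. Its level ran from 5.14 to 565 CPM, a 110-fold range that corresponds to 191 and 23865 reads, so counting error was small beside it. The libraries fell into 2 sets by Ttr level, 7 between 5.14 and 28.4 CPM and 17 between 113 and 565 CPM, with no library in the 3.97-fold gap between them. The 7 libraries were R47H_induced replicate 4, R47H_control replicates 3 and 5, WT_induced replicates 3 and 6, and WT_control replicates 3 and 5, so each group held 1 or 2 of them. In bulk tissue, fewer cells of a type and less RNA per cell cannot be told apart. The labels do not say how the tissue of each mouse was cut.

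**Figure D1:**
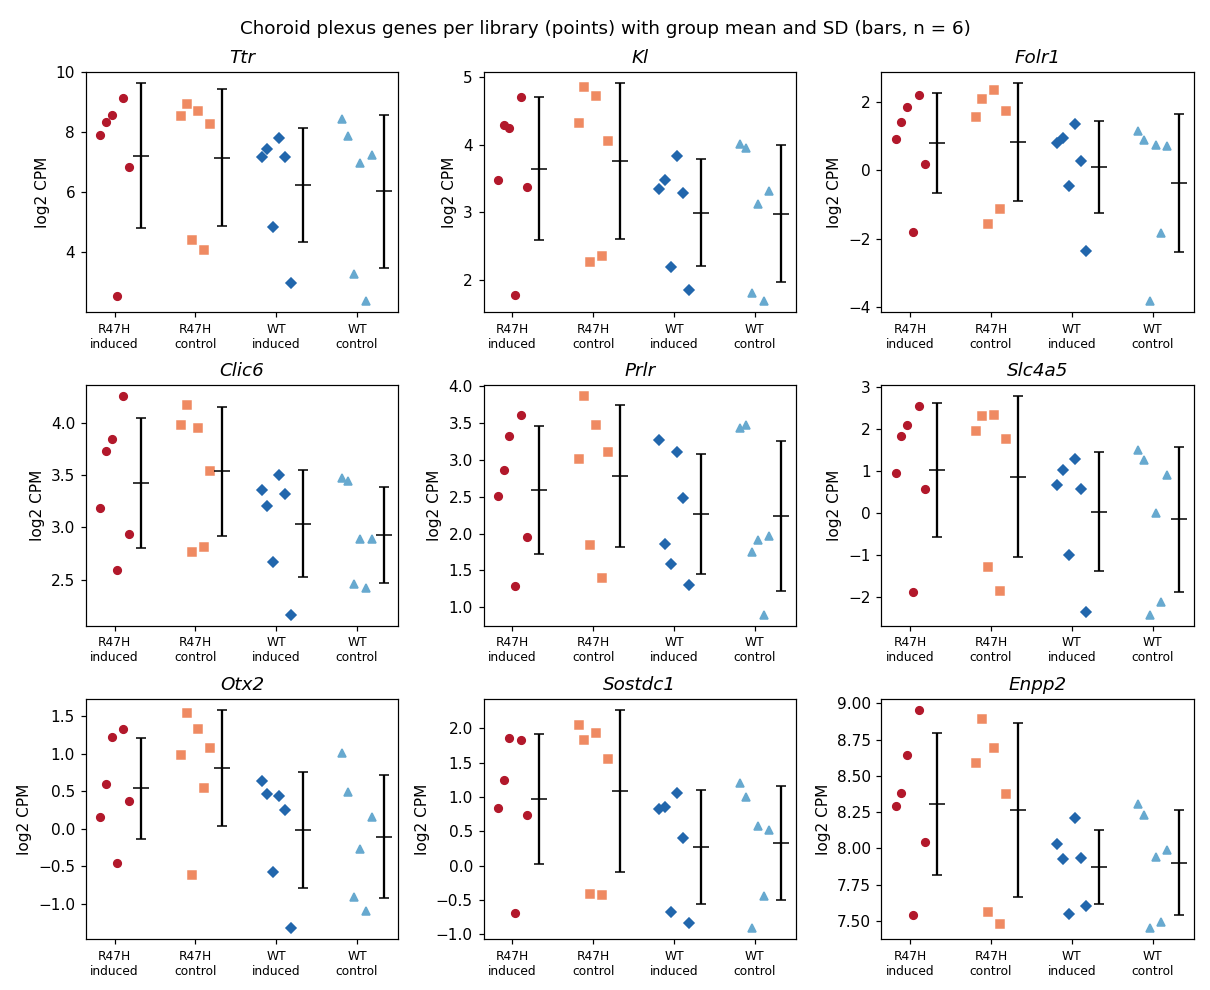
Level of each of the 9 genes in log2 CPM (y axis) per library, by group (x axis, 6 libraries each); the bar beside each group is its mean and SD. In Ttr, each group splits into 1 or 2 libraries at 28.4 CPM or less and the others at 113 CPM or more, and all groups overlap.

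Ttr had its lowest, median and highest levels at 5.76, 281 and 565 CPM in R47H_induced, and at 16.7, 339 and 486 CPM in R47H_control. In WT_induced the same values were 7.86, 143 and 221 CPM, and in WT_control they were 5.14, 138 and 345 CPM. Group means were 271 ± 199 CPM in R47H_induced, 270 ± 203 in R47H_control, 119 ± 83.6 in WT_induced and 145 ± 131 in WT_control (SD, n = 6 each). Every group therefore spanned low and high libraries, with the highest of all in R47H_induced replicate 5 and the lowest in WT_control replicate 5. Ttr lies on chromosome 18 (20665250 to 20674324, mm10, as in the deposited table).

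The genes of transport and of hormone and vitamin uptake followed the same pattern to different degrees. Slc4a5 (chromosome 6, 83219828 to 83304945) had a lowest, median and highest level of 0.257, 2.73 and 5.84 CPM in R47H_induced, 0.262, 3.61 and 5.03 in R47H_control, 0.182, 1.53 and 2.41 in WT_induced, and 0.173, 1.43 and 2.81 in WT_control. Folr1 (chromosome 7, 101858331 to 101870788) had 0.275, 2.24 and 4.57 CPM in R47H_induced, 0.321, 3.11 and 5.06 in R47H_control, 0.182, 1.47 and 2.51 in WT_induced, and 0.0578, 1.63 and 2.18 in WT_control. Both were near absent in the libraries at low Ttr: Slc4a5 was between 0.173 and 0.489 CPM in those 7 and between 0.990 and 5.84 CPM in the other 17, and Folr1 was between 0.0578 and 0.709 CPM and between 1.13 and 5.06 CPM. The lowest Folr1 value rests on 2 reads. Kl (chromosome 5, 150952607 to 150993809) had 3.41, 15.1 and 26.2 CPM in R47H_induced, 4.81, 18.2 and 28.9 in R47H_control, 3.58, 9.93 and 14.3 in WT_induced, and 3.20, 9.32 and 16.1 in WT_control. Clic6 (chromosome 16, 92485736 to 92541243) had 6.01, 11.2 and 19.1 CPM in R47H_induced, 6.76, 13.6 and 17.997 in R47H_control, 4.47, 9.57 and 11.3 in WT_induced, and 5.33, 7.39 and 11.1 in WT_control. Neither of these genes came near 0 in any library: over all 24, Kl spanned 9.01-fold and Clic6 4.27-fold, against 33.7-fold for Slc4a5 and 87.6-fold for Folr1.

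The receptor, the transcription factor and the secreted products were read at low counts, apart from Enpp2. Prlr (chromosome 15, 10177238 to 10349180) had a lowest, median and highest level of 2.44, 6.45 and 12.2 CPM in R47H_induced, 2.62, 8.29 and 14.5 in R47H_control, 2.46, 4.57 and 9.57 in WT_induced, and 1.86, 3.82 and 11.02 in WT_control. Otx2 (chromosome 14, 48657679 to 48667644) had 0.715, 1.39 and 2.51 CPM in R47H_induced, 0.642, 2.03 and 2.91 in R47H_control, 0.388, 1.26 and 1.55 in WT_induced, and 0.457, 0.958 and 2.01 in WT_control. Its counts ran from 17 to 106 reads, and it was the only member with a library at low Ttr (R47H_control replicate 5, 1.44 CPM) above the lowest of the 17 at high Ttr (0.817 CPM). The sets at low and high Ttr were cut on Ttr, itself a member. The share of all tested genes that separate between these sets was not computed, so the separation is no result about the members. Sostdc1 (chromosome 12, 36314169 to 36318452) had 0.605, 2.07 and 3.60 CPM in R47H_induced, 0.733, 3.24 and 4.14 in R47H_control, 0.547, 1.54 and 2.07 in WT_induced, and 0.520, 1.45 and 2.29 in WT_control. Enpp2 (chromosome 15, 54838898 to 54920146) had 186, 323 and 496 CPM in R47H_induced, 178, 358 and 476 in R47H_control, 187, 244 and 295 in WT_induced, and 175, 250 and 316 in WT_control. It had the narrowest range of the 9, 2.84-fold, and had 175 CPM in its lowest library.

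Per length, Ttr had the highest mean level, 165 CPM per kb over the 24 libraries, followed by Enpp2 at 82.3 CPM per kb. The ranges of these 2 genes overlapped (4.22 to 463 and 50.3 to 143 CPM per kb), so their order differed between libraries. Clic6 followed at 2.59 and Kl at 2.46 CPM per kb, then Sostdc1 at 1.09 and Folr1 at 0.836, and last Prlr at 0.426, Otx2 at 0.414 and Slc4a5 at 0.370 CPM per kb. Enpp2 lay above the highest value of every gene after it in this order (5.65 CPM per kb, in Kl). Among the 7 genes from Clic6 down, the ranges of neighbours overlapped. The kit does not mark strand. In GENCODE vM21 another annotated gene overlaps 5.97% of the exon bases of Enpp2, 3.98% of those of Otx2 and 1.32% of those of Prlr. Among the overlapping genes is the antisense Otx2os1, whose reads cannot be told apart from Otx2 there. The other 6 members have 0%. These gene models are not all those of the deposited counts: Enpp2 has 5779 exon bases in GENCODE vM21 and a length of 3473 in the deposited table. The overlap within the counted exons was therefore not determined.

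The first question of the design was whether R47H and WT cortex differed, and no member passed the test under either treatment. In induced mice 0 of 9 members were called (edgeR, adjusted p below 0.05 over all tested genes), against 5.8% of the 19678 tested genes, and in control mice 0 of 9, against 5.74%. All 9 log2 fold changes were positive in both: the median was 0.74 in R47H_induced over WT_induced (0.34 to 1.19) and 0.85 in R47H_control over WT_control (0.42 to 1.05), while the median of all tested genes lay at 0.00163 and -0.00117. The error was widest for Ttr, whose log2 fold change was 1.19 in induced mice (SE 0.996, 95% interval -0.892 to 3.26, edgeR adjusted p = 0.573) and 0.89 in control mice (SE 0.988, 95% interval -1.17 to 2.95, adjusted p = 0.667).

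In control mice the member closest to the threshold was Otx2, which averaged 1.92 ± 0.80 CPM in R47H_control and 1.05 ± 0.59 CPM in WT_control (SD, n = 6 each). Its log2 fold change was 0.85 (SE 0.40, 95% interval 0.0139 to 1.68, edgeR adjusted p = 0.234), and the groups overlapped. The two-sided exact permutation test over all assignments of 6 against 6 gave p = 0.0714 on log2 CPM and 0.0541 on CPM, the lowest of the 36 such tests (9 genes in 4 comparisons of groups) on each scale; the test can reach 0.00216. Clic6 had a log2 fold change of 0.64 (SE 0.32, edgeR adjusted p = 0.26) between R47H_control and WT_control. In induced mice the closest member was Enpp2, which averaged 332 ± 108 CPM in R47H_induced and 237 ± 41.1 CPM in WT_induced, with a log2 fold change of 0.48 (SE 0.25, edgeR adjusted p = 0.299). The groups overlapped for every member in each of the 4 comparisons, 36 cases in all. The share of all tested genes with overlapping groups was not computed, so this count is no result about the members.

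The values between R47H and WT cortex were smaller once the level of Ttr, itself a member, entered the fit. Ttr had a positive log2 fold change in both comparisons and the other 8 members rose with it. Smaller values were therefore bound to follow, and this fit tests no cause. With log2 CPM of Ttr as a covariate, an alternative chosen after seeing the data, the log2 fold change of Slc4a5 was 0.21 in R47H_induced over WT_induced and 0.32 in R47H_control over WT_control, against 1.08 and 1.03 without it, and those of Folr1 and Prlr in induced mice turned to -0.03 and -0.07. Otx2 in control mice was then at 0.60 (edgeR adjusted p = 0.0553) and Clic6 at 0.37 (adjusted p = 0.0965). Yam1, AY036118 and Lars2, 3 genes in all, are grouped here under the label rRNA-like, and the origin of their reads was not tested. Their share of the counts was 15.0% to 19.5% in R47H_induced, 17.1% to 24.4% in R47H_control, 14.7% to 23.0% in WT_induced and 11.5% to 20.1% in WT_control. With that share as a covariate, also chosen after seeing the data, the members had a median of 0.66 in R47H_induced over WT_induced and 0.96 in R47H_control over WT_control, against 0.74 and 0.85 without it, and Slc4a5 was at 0.97 and 1.38.

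**Figure D2:**
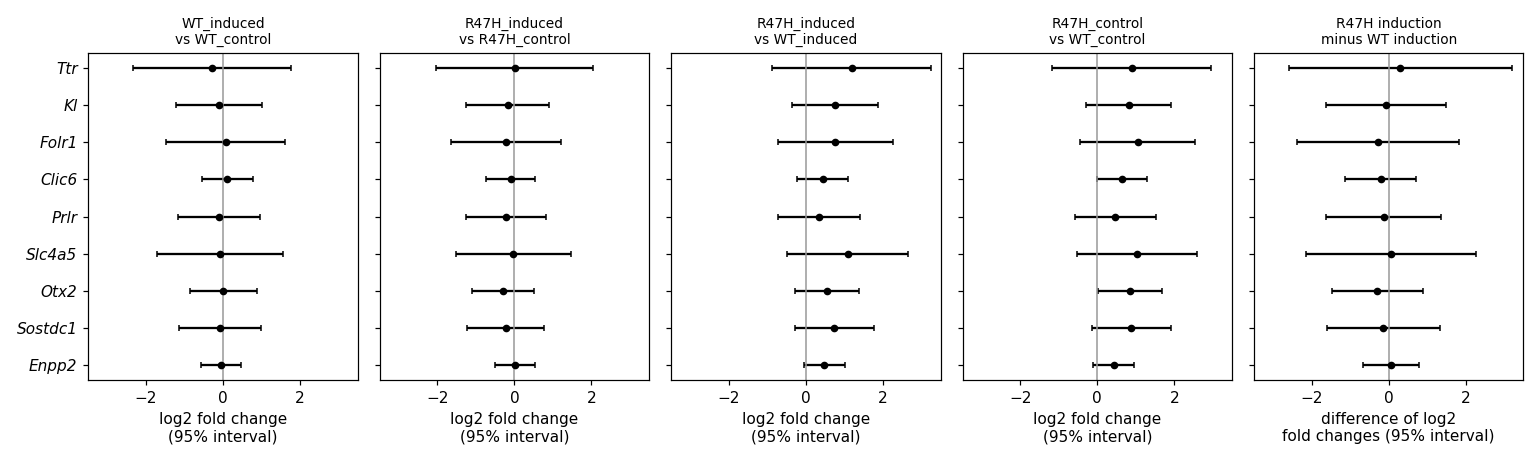
Fitted log2 fold change (x axis, with its 95% interval) of each of the 9 genes in the 4 comparisons of groups and, at the right, the difference of the inductions. All 9 points lie to the right of 0 in both comparisons of R47H with WT, and 17 of those 18 intervals hold 0; Otx2 in R47H_control over WT_control, from 0.0139 to 1.68, does not, at an adjusted p of 0.234.

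The second question was whether induction changed these genes, and no change was detected in either genotype. In WT mice 0 of 9 members were called between WT_induced and WT_control, against 0% of tested genes, and in R47H mice 0 of 9 between R47H_induced and R47H_control, also against 0% (edgeR; 7.85% and 5.11% of tested genes, and 0 members in both, had an unadjusted p below 0.05). DESeq2 called 13 and 4 genes in these comparisons, none of them a member. The log2 fold changes of the members had a median of -0.08 in WT (-0.29 to 0.10) and -0.18 in R47H mice (-0.29 to 0.01). For Ttr the 95% interval ran from -2.35 to 1.77 in WT and from -2.03 to 2.05 in R47H mice, and for Enpp2, the member with the least spread, from -0.567 to 0.475 and from -0.508 to 0.534. The induction in R47H mice minus that in WT mice had a median of -0.13 over the members (-0.30 to 0.29), and 0 of 9 were called, against 0% of tested genes (7.94% at an unadjusted p below 0.05, and 0 members; DESeq2 called 3 genes, none of them a member). The comparisons share groups and are not independent of each other.

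Other genes of the choroid plexus epithelium, a list of 39 genes that were all tested, also lay mostly to the positive side between R47H and WT cortex. Across libraries 38 of the 39 tended to rise with Ttr, with group means in the fit, so their signs are not independent observations. The median of all tested genes lay at 0.00163 in induced and -0.00117 in control mice, and the share of them above 0 was not computed. In induced mice 35 of the 39 lay above 0 in log2 fold change, at a median of 0.25, and 0 were called; in control mice 36 of the 39 did, at a median of 0.25, and 1 was called, Car14, a membrane-bound carbonic anhydrase (log2 fold change 0.25, SE 0.07, edgeR adjusted p = 0.0297). Of 14 ependymal genes, which mark the ciliated lining of the ventricles, 1 was higher in each comparison, a share near the 5.8% and 5.74% of all tested genes called in induced and control mice: Ak7 in R47H_induced over WT_induced (0.65, SE 0.19, adjusted p = 0.0335) and Tekt1 in R47H_control over WT_control (0.71, SE 0.20, adjusted p = 0.0283), both genes of motile cilia. The summed ependymal level ran from 17.9 to 26.5 CPM in R47H_induced, 19.6 to 24.7 in R47H_control, 16.7 to 21.8 in WT_induced and 16.4 to 18.8 in WT_control. Meningeal fibroblast genes summed to 99.3 to 143 CPM, 112 to 147 CPM, 95.8 to 139 CPM and 106 to 127 CPM in the same groups; 0 of 13 were called in either comparison, with 7 and 13 positive. Striatal genes were lower in R47H cortex, with 4 of 10 called in induced and 6 of 10 in control mice, among them Penk, an opioid peptide precursor (-0.29 and -0.19), and Pde10a, a striatal phosphodiesterase (-0.24 and -0.18). With the meningeal list as a covariate the 9 choroid plexus genes had a median log2 fold change of 0.73 in induced and 0.70 in control mice, and with the oligodendrocyte list 0.70 and 0.85, all 9 positive in each. The part of ependymal and striatal tissue in the values of the 9 genes was not tested.

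Few partners of the 9 gene products were called between R47H and WT cortex, where 5.8% of all tested genes were called in induced and 5.74% in control mice, so counts of 1 or 2 in lists of this size are no result about the lists. The list of lysophosphatidic acid signalling held 13 genes, among them receptor genes and relatives of Enpp2 in the Enpp family. In it, 1 was higher in induced and 2 in control mice. Enpp4, a relative of Enpp2 by family, was higher in both (0.43, SE 0.06, adjusted p = 6.95e-05, and 0.39, SE 0.06, adjusted p = 0.000291). Whether its product acts on lysophosphatidic acid was not tested. The receptor gene Lpar2 was higher in control mice (0.75, SE 0.21, adjusted p = 0.0337). Of 21 tested genes of bicarbonate transport and cerebrospinal fluid secretion, Clic5 was lower in induced mice (-0.30, adjusted p = 0.0349), while in control mice Car14 and the carbonic anhydrase Car2 (0.13, adjusted p = 0.0207) were higher. Single genes were called in other partner lists: in control mice the FGF receptor Fgfr2 (0.19, adjusted p = 0.00838, 1 of 7) and the prolactin-pathway factor Stat5b (0.14, adjusted p = 0.0133, 1 of 7) were higher and the retinoic acid receptor Rarb was lower (-0.18, adjusted p = 0.0127, 1 of 11). None of the 13 tested BMP and WNT partners of Sostdc1 was called. All of these adjusted p are edgeR's.

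Across libraries, the members varied together. In a fit of each gene on log2 CPM of Ttr, with a mean for each group, all 8 other members rose with Ttr (edgeR, adjusted p below 0.05 over 19677 genes), against 0.219% of genes that rose (43 genes) and 0.0102% that fell (2 genes). This fit was chosen after seeing the data. The slope, the change in log2 CPM per unit of log2 CPM of Ttr, was 0.75 for Slc4a5 (SE 0.03, adjusted p = 1.07e-15) and 0.68 for Folr1, then 0.44 for Kl, 0.41 for Sostdc1, 0.36 for Prlr, 0.30 for Otx2, 0.23 for Clic6 and 0.18 for Enpp2 (adjusted p = 6.01e-06). All 8 slopes were below 1, the slope of a gene that keeps a fixed ratio to Ttr. They were fitted over the libraries at low and high Ttr together, and the slope within a single set can differ, as for Prlr below.

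**Figure D3:**
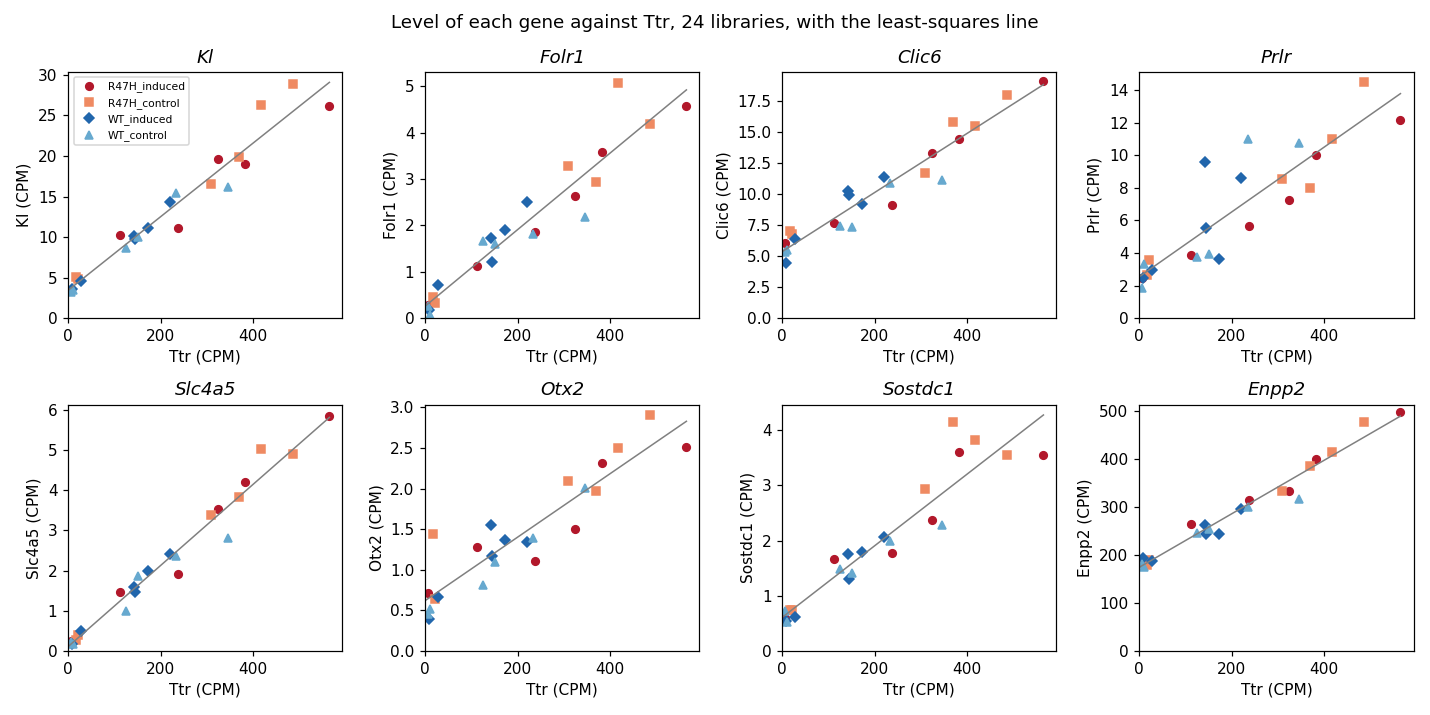
CPM of each of the other 8 genes (y axis) against CPM of Ttr (x axis) in 24 libraries, marked by group, with the least-squares line. Slc4a5 runs almost to 0 at low Ttr, with an intercept of 0.109 CPM, while the line of Enpp2 starts at 174 CPM.

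On the linear scale, the level that the least-squares line gave at a Ttr of 0 differed widely between members. It was 0.109 CPM for Slc4a5, 5.07% of its mean level, and 13.5% of the mean for Folr1. It came to 27.4% for Kl, 31.7% for Sostdc1, 38.9% for Prlr, 44.1% for Otx2 and 52.8% for Clic6. For Enpp2 it was 174 CPM, 60.8% of the mean. The 11 genes of mature oligodendrocytes summed to 3051 to 3753 CPM in R47H_induced, 2954 to 3568 CPM in R47H_control, 3297 to 3989 CPM in WT_induced and 3104 to 3764 CPM in WT_control, and 0 of the 11 rose or fell with Ttr.

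Within the 17 libraries at high Ttr, all 36 pairs of members correlated. Pearson's r of log2 CPM ran from 0.724 to 0.969 (median 0.907) and Spearman's rho from 0.642 to 0.968, with permutation p adjusted over the 36 pairs of at most 0.00148 and 0.00677. Without the 2 libraries farthest from the median of the first gene of a pair, r had a median of 0.883 and stayed between 0.683 and 0.976, and on deviations from the group means its median was 0.844. In the 7 libraries at low Ttr, r ran from -0.346 to 0.896 (median 0.482), and 31 of 36 pairs were positive in r and 34 in rho. In either measure 0 of 36 pairs passed, with lowest adjusted permutation p of 0.286 for r and 0.1 for rho. A set of 7 libraries has little power, so these pairs were not shown to be unrelated. In the slope fits on the 17 libraries 7 of the 8 members rose with Ttr, and Prlr had a slope of 0.86 with an edgeR adjusted p of 0.308; in the 7 libraries, fitted without group means, 0 of 8 passed, with slopes of 0.01 for Enpp2 to 0.59 for Folr1.

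**Figure D4:**
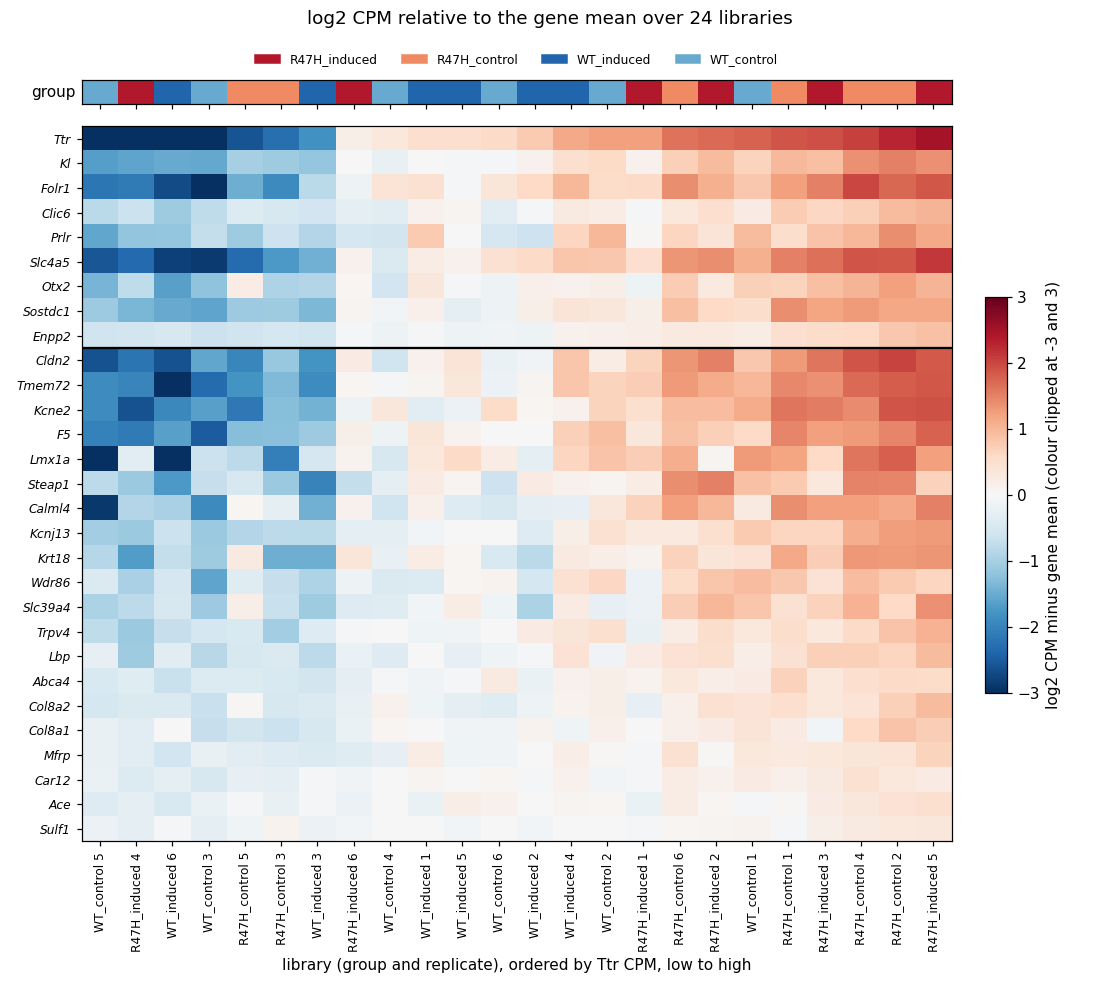
log2 CPM minus the gene's mean over 24 libraries (colour, clipped at -3 and 3) of the 9 genes (above the line) and the 20 other choroid plexus genes that rose with Ttr (below it, by slope); columns are libraries ordered by Ttr from 5.14 to 565 CPM, with the group in the strip above. The 7 libraries at the left are blue in nearly all rows, and come from all 4 groups.

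Other choroid plexus genes rose with Ttr too. Of the 39 listed, 38 had positive slopes and 20 passed, against 0.219% of all genes. The steepest were Cldn2, which encodes a tight junction protein that forms paracellular channels in this epithelium (slope 0.65), Tmem72 (0.64), Kcne2, a potassium channel subunit (0.63), and F5, coagulation factor V (0.55). The transcription factor Lmx1a (0.47) and the channel genes Kcnj13 (0.31) and Trpv4 (0.24) also rose, all with edgeR adjusted p of at most 0.000405. The 8 listed genes with the highest level per length did not pass: Slc4a10, Igfbp2, Slc12a2, Vat1l, Igf2, Cab39l, Htr2c and Tcn2 had slopes between 0.00 and 0.08, with the lowest adjusted p at 0.0804 for Igf2. Car14, the listed gene that was higher in R47H_control than in WT_control, had a slope of -0.000327 (adjusted p = 0.999).

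**Figure D5:**
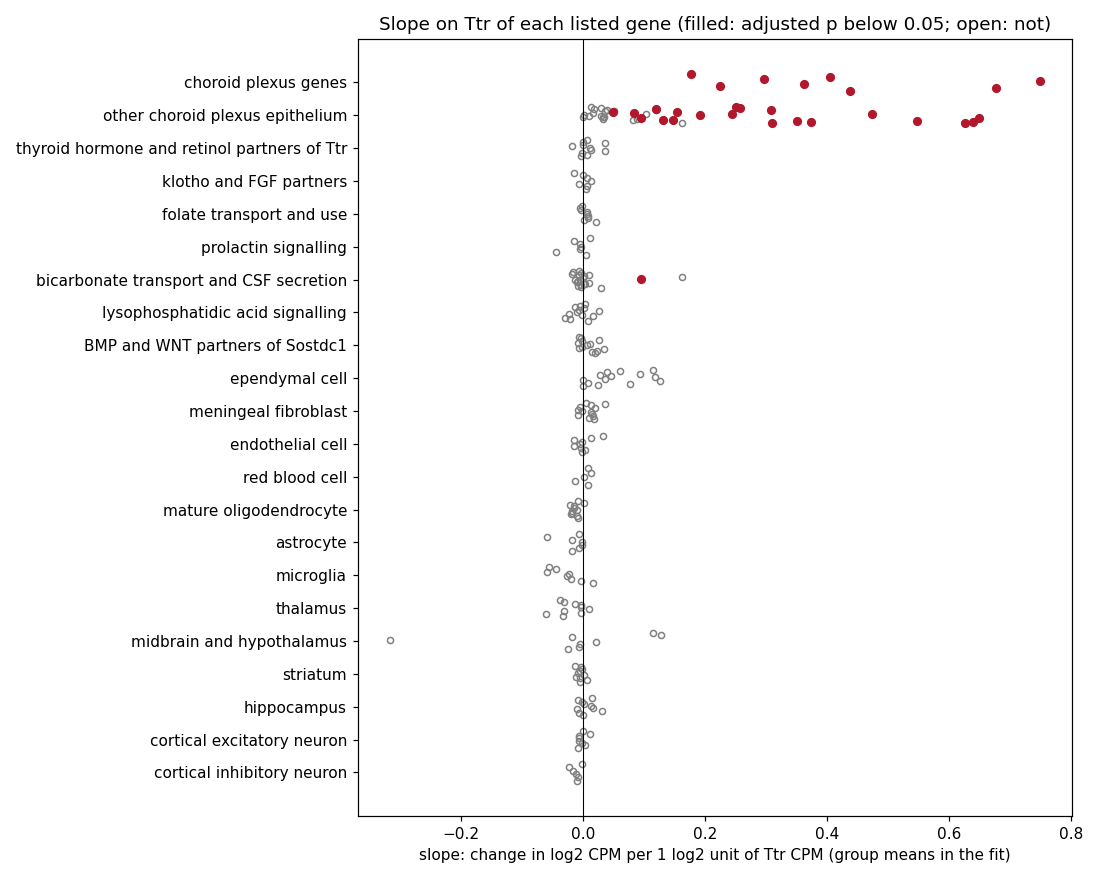
Slope on Ttr (x axis, change in log2 CPM per unit of log2 CPM of Ttr) of each tested gene of each list (y axis); filled points passed at an adjusted p below 0.05 and open points did not. Filled points are the 8 genes of the first row, 20 of the second and, in the bicarbonate list, Car12, which is in the second list too.

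Outside the choroid plexus lists, no listed gene rose or fell with Ttr. The other 20 lists held 193 tested genes in neither choroid plexus list, and 0 of these passed (edgeR, lowest adjusted p 0.503, slopes from -0.32 to 0.13; 5.13% of all genes had an unadjusted p below 0.05). Of the 14 ependymal genes 12 had positive slopes, and the median over the 14 was 0.04. Meningeal genes had a median slope of 0.01 over 13 genes and endothelial genes -0.00243 over 9. The partners also stayed near 0: the median slope was 0.01 for thyroid hormone and retinol partners, 0.00433 for klotho and FGF partners, 0.01 for folate genes, -0.00433 for prolactin signalling, and -0.01 for lysophosphatidic acid signalling.

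By Pearson's r with the mean of the 9 members' centred log2 CPM over the 24 libraries, given as a likeness with no test, the 10 most similar other genes were F5 (0.987), Tmem72 (0.985), Cldn2 (0.973), Drc7 (0.969), Kcne2 (0.961), Kcnj13 (0.950), 1500015O10Rik (0.950), Prr32 (0.936), Abca4 (0.923) and Car12 (0.923). Of these 7 are in the list of other choroid plexus genes, and Drc7, 1500015O10Rik and Prr32 are in none. Among the members themselves, Slc4a5 and Kl were nearest to that mean (r = 0.992 each, the mean including them) and Prlr was farthest (0.912). Libraries at low and high Ttr both enter these values. Within the 17 libraries r was 0.958 for F5 and 0.857 for Car12, and within the 7 it was 0.860 for F5 and 0.0544 for Abca4.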

How the data were processed

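Poly-A RNA of cortex was sequenced in 24 libraries, 1 per mouse, from libraries made with a kit that does not mark strand, per the labels' protocols. The deposited values are raw read counts of each gene, whole numbers that the authors did not normalize; STAR 2.5.2b, featureCounts 1.5.1 and mm10 are named in the submitters' processing notes, and no source used here gives the counting options. The authors' table gives a length in bases for each gene, used for CPM per kb. Total counts ran from 27933505 to 56082520, and none of the 60 within-group pairs of libraries looked like a repeat of 1 library (chi-square per degree of freedom 4.31 to 61.7).

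The tests were those of edgeR 4.0.16 in R 4.3.3 after TMM scaling (filterByExpr, robust quasi-likelihood F-test, 1 fit over all 24 libraries, Benjamini-Hochberg adjustment over 19678 genes, threshold 0.05). CPM are relative to TMM-scaled totals, and log2 CPM has a prior count of 0.5. Single members were compared by two-sided exact permutation tests, and correlations by 100000 permutations. The slope on Ttr was an edgeR fit with group means, added after seeing the data. Alternatives were RLE size factors, library totals, other filters, a non-robust fit, covariates, fits on the compared groups, a threshold of 0.1, DESeq2 1.42.0, limma-voom (limma 3.58.1) and each library left out. All 9 members are named, with called members of each list (at most 6), the 8 other choroid plexus genes highest per length and the 10 genes most alike; other genes were named after their values were seen, and some called list genes are not reported here. The members and lists were chosen with earlier results of these data known. Gene names were matched by symbol, 5 of 257 listed genes under an older one.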

Additional observations from a re-analysis of the deposited data

How the results depend on the processing

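No member was called in any of the 189 alternative results (each 1 comparison under 1 setting, over the 5 comparisons), and all 36 exact permutation tests stayed above 0.05 on CPM without logs. In R47H_control over WT_control the log2 fold changes of all 9 members stayed positive in every alternative, and in R47H_induced over WT_induced those of all but Folr1 (-0.0337) and Prlr (-0.0665), which turned with the Ttr covariate. The near-zero values of the inductions and of their difference changed sign often. No cause of these changes was tested.

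Signs turned as follows, in log2 fold change. For WT_induced over WT_control, Slc4a5 was at 0.0924 with the Ttr covariate, 0.0846 with the rRNA-like share, 0.0105 with limma-voom and 0.578 with limma-voom and sample weights. Otx2 was at -0.0299 with library totals and -0.000248 with limma-voom, and Ttr at 0.123 with limma-voom. With sample weights Ttr was at 0.833, Kl at 0.211, Prlr at 0.147, Sostdc1 at 0.107 and Enpp2 at 0.0413. For R47H_induced over R47H_control, Slc4a5 was at 0.0319 with library totals, 0.127 with limma-voom, 0.0772 with sample weights, 0.0888 with the meningeal and 0.00588 with the oligodendrocyte covariate. Ttr was at -0.0158 with sample weights and -0.216 with the rRNA-like share, Clic6 at 0.000407 with the meningeal covariate and Enpp2 at -0.00858 with the rRNA-like share. For the induction in R47H minus that in WT mice, Ttr was at -0.0785 with limma-voom, -0.849 with sample weights and -0.0483 with the rRNA-like share, and Slc4a5 at -0.111 with the Ttr covariate, -0.5 with sample weights and -0.41 with the rRNA-like share. Kl was at 0.0347 with library totals and 0.0717 with the meningeal covariate, Prlr at 0.0437 with that covariate, Sostdc1 at 0.018 with limma-voom and Enpp2 at -0.0156 with sample weights.

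Leaving out each library in turn, values for WT_induced over WT_control ran from -0.555 to 0.181 for Ttr, -0.296 to 0.115 for Kl, -0.187 to 0.317 for Folr1, -0.327 to 0.183 for Prlr, -0.336 to 0.24 for Slc4a5, -0.138 to 0.313 for Otx2, -0.25 to 0.117 for Sostdc1 and -0.126 to 0.0404 for Enpp2. For R47H_induced over R47H_control they ran from -0.346 to 0.268 for Ttr, -0.416 to 0.0459 for Kl, -0.531 to 0.0741 for Folr1, -0.304 to 0.0394 for Clic6, -0.473 to 0.0322 for Prlr, -0.387 to 0.22 for Slc4a5 and -0.138 to 0.144 for Enpp2. For the difference of inductions they ran from -0.173 to 0.564 for Ttr, -0.31 to 0.152 for Kl, -0.407 to 0.128 for Prlr, -0.301 to 0.308 for Slc4a5, -0.343 to 0.0724 for Sostdc1 and -0.0917 to 0.19 for Enpp2.

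Over all tested genes, the 1142 and 1129 calls of R47H over WT in induced and control mice became 1853 and 1953 at a threshold of 0.1, and the 1129 became 721 with the meningeal covariate and 451 with the rRNA-like share. The 0 calls of the inductions became 13 in WT, 4 in R47H mice and 3 for the difference with DESeq2; in R47H mice they became 2 with the meningeal covariate or without R47H_induced replicate 3, and 1 in a fit on the compared groups or without WT_induced replicate 6. They became 1 in WT mice without WT_control replicate 2, and 1 for the difference without WT_induced replicate 2, WT_induced replicate 3 or WT_control replicate 2.

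All 8 members rose with Ttr under each scaling and filter, without group means and without any single library. In the 7 libraries at low Ttr 0 did, and the median r between members was 0.482, against 0.907 in the 17 at high Ttr; within those 17, 21 genes rose in all, 9 of them other choroid plexus genes. The 2 falling genes became 16 with all genes kept, 1 with at least 1 CPM in 6 libraries, 0 without group means and 0 to 5 with a library left out.

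Counting limits the least abundant members: Otx2 had 17 reads in its lowest library, Slc4a5 6 and Folr1 2. No paired analysis was possible because the labels give no replicate numbers, and those used here follow accession order.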

Other observations

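Of the 43 genes that rose with Ttr over the 24 libraries, 15 were in none of the lists. They include genes of the extracellular matrix, Col9a3 (slope 0.11, edgeR adjusted p = 3.65e-05; 7.76 to 14.6 CPM), Col4a3 (slope 0.19, adjusted p = 0.00371) and Frem1 (slope 0.10, adjusted p = 0.00531). Others encode secreted proteins or enzymes, such as Wfdc2 (slope 0.50, adjusted p = 8.89e-05), whose level ran from 0.0538 to 0.941 CPM, and the phospholipase Pla2g5 (slope 0.12, adjusted p = 0.000373). Prr32 (slope 0.65, adjusted p = 2.21e-09) was at 0 in at least 1 library and reached 1.04 CPM. Drc7, a part of the motile cilium's dynein regulatory complex, had a slope of 0.29 (adjusted p = 2.81e-08), and Cgnl1, which encodes a tight junction protein, had the smallest slope of the 15 (0.06, adjusted p = 0.0477). The others were 1500015O10Rik, Oca2, Wdr72, Baiap2l1, Tmprss11a, Zfp185 and Ccdc108, with slopes between 0.10 (Ccdc108) and 0.51 (Wdr72).

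The 2 genes that fell with Ttr were Insig1, a sterol-sensing regulator of cholesterol synthesis (slope -0.05, SE 0.01, adjusted p = 0.02; 38.7 to 62.3 CPM), and RP23-463B12.1 (slope -0.21, SE 0.05, adjusted p = 0.0306). These genes were named after their values were seen.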
